A study of Homo sapiens with 4 samples.

Results

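The MYC network is a set of transcription factors that pair through a common partner, MAX. MYC, MYCN and MYCL bind DNA as dimers with MAX, chiefly at the E-box, and activate genes of growth, ribosome production and metabolism. MXD1, MXI1, MNT and MGA compete for MAX and, as dimers with it, repress such genes. PVT1 is a long non-coding RNA gene next to MYC, in a chromosome arm that is often gained in prostate cancer, and MYCN is known for its part in neuroendocrine prostate cancer. Open chromatin at these 9 genes was examined in enzalutamide-resistant cells of the prostate cancer line LNCaP and in LNCaP cells themselves.

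The 9 genes were taken by name out of 59679 in the RefSeq table, of which 20037 are protein-coding, and all 9 were found. A locus was the gene body with 50 kb on either side, and MYC was also examined to 750 kb on either side, because enhancers of MYC are known to lie far from the gene. The 9 loci together covered 1549 kb.

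Accessibility was read by ATAC-seq, an assay whose transposase cuts open chromatin and leaves sequencing adapters there. There were 2 libraries of LNCaP cells, which express the androgen receptor, and 2 of LNCaP-resistance cells, labelled as treated with enzalutamide, an androgen receptor antagonist. Both kinds of cell were grown in RPMI-1640 with fetal bovine serum. The resistant cells had been derived from LNCaP by stepwise increases of the drug after adaptation to charcoal-stripped serum. The labels do not say which resistant subline was profiled, whether the drug was present at harvest or whether replicates were separate cultures, so the spread between replicates may be technical.

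A peak summit is the position of strongest signal within a peak, and the lists gave 1 position and 1 score for each. LNCaP replicates 1 and 2 had 117245 and 107344 summits and resistant replicates 1 and 2 had 70866 and 45618. The lists hold no read counts, so sequencing depth is unknown, and a missing summit can reflect depth or peak calling as well as closed chromatin. Scores were turned into percentiles within each library, so that a summit at percentile 90 scored at least as high as 90% of the summits of its list. Windows of 250 bp to both sides of every summit were joined where they overlapped, which gave 150917 regions on the main chromosomes. A region was called shared where all 4 libraries had a summit, LNCaP-only where both LNCaP libraries and neither resistant library had 1, and resistant-only in the reverse case. All other regions were left unclassed. With 2 libraries against 2, an exact two-sided permutation test cannot give a p below 0.333, so the groups are described by their values, by whether they overlap, and against all regions or genes.

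Genes of luminal prostate cells and of neuroendocrine cells were also read at their starts. Of 8 luminal prostate genes 7 had a summit within 1 kb of the start in all 4 libraries. The exception was KLK3, the gene of prostate-specific antigen, which had none. Of 6 neuroendocrine genes 5 had a summit in all 4 libraries, and INSM1 had none. The shares were 87.5% and 83.3%, against 56.5% of all protein-coding genes. Presence was thus about as frequent in both lists and does not tell these cell types apart. At the luminal starts the resistant values were higher than both LNCaP values for 1 gene of 8 and lower for 3, and at the neuroendocrine starts they were higher for 1 of 6 and lower for 0. Over all protein-coding genes 20.4% were higher and 15.3% lower by this rule, or 28.2% and 21.2% of the 14440 genes with a summit at the start in at least 1 library. Whether these differences bear on the MYC network was not tested.

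The promoter windows that carry the observations on MXI1, MGA and MNT are printed first. RefSeq promoter sequences, of GRCh38.p14, were at hand for 7 of the 9 genes and 12 listed starts, and MYC and PVT1 had no entry. Each sequence runs 5′ to 3′ on the gene's strand from 250 bases before the start to 49 bases after the start base. Capitals mark the E-box CACGTG or its variant CACGCG, both of which are known to be bound by MAX dimers. The variant was also read on the other strand, as CGCGTG, whereas CACGTG is its own reverse complement, and no motif found overlapped another.
MXI1, first listed start, chr10:110207355-110207654, plus strand: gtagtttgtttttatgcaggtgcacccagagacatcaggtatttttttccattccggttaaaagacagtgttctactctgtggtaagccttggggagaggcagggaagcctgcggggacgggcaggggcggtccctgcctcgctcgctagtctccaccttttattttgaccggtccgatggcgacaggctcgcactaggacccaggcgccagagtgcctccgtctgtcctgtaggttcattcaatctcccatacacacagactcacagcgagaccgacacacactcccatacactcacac
MXI1, last listed start, chr10:110225746-110226045, plus strand: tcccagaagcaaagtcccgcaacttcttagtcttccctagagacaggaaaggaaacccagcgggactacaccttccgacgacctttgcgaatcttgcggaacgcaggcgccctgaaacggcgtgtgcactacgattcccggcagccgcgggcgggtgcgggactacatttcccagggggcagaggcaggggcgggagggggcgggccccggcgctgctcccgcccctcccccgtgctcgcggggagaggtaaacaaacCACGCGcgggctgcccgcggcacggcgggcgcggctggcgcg
MGA, last listed start, chr15:41660497-41660796, plus strand: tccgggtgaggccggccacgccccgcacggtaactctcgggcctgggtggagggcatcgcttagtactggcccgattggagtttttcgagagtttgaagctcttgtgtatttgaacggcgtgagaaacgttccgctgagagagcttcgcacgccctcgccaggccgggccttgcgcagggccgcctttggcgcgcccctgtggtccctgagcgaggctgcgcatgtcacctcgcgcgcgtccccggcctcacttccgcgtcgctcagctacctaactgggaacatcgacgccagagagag
MNT, chr17:2401011-2401310, minus strand: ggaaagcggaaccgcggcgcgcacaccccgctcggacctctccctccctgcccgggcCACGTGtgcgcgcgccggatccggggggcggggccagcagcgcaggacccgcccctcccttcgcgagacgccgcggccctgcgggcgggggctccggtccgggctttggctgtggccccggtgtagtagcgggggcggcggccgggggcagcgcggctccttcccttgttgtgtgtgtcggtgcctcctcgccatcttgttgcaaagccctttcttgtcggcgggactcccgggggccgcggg

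The first 3 windows were chosen because they held a summit of every library. The MNT window is shown for its E-box, which begins 193 bases before the start, and of the 4 libraries only resistant replicate 2 had a summit in this window. CACGTG was present in 1 of the 12 member windows and in 7.26% of 35116 promoters of the same length. The variant was present in 2 of the 12 windows and in 11.4% of all promoters. It lay 8 bases after the last MXI1 start and 21 bases before a further MGA start. GC content of the member windows ran from 55.0% at the first MXI1 start to 76.0% at MNT, and the median over all promoters was 58.7%. The first MXI1 window was thus the poorest in G and C of the 12 and held 14 CpG dinucleotides, against 35 in the window of the last MXI1 start.

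At the gene starts a summit within 1 kb was present in all 4 libraries for 8 of the 9 genes, and MNT had 1 in 3 libraries. Of all protein-coding genes 56.5% had a summit in all 4. Both resistant values lay above both LNCaP values at MYC, PVT1 and MXD1 and below them at MXI1 and, within 1 kb, at MNT. At MYCN, MYCL, MAX and MGA the ranges of the groups overlapped. These are 3 genes higher and 2 lower of 9, where the MNT result depends on the window, as described below. Against the 20.4% and 15.3% of all protein-coding genes, or the 28.2% and 21.2% of those with a summit, the counts for so few genes are near the background in both directions, and the members are described singly.

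**Figure D1:**
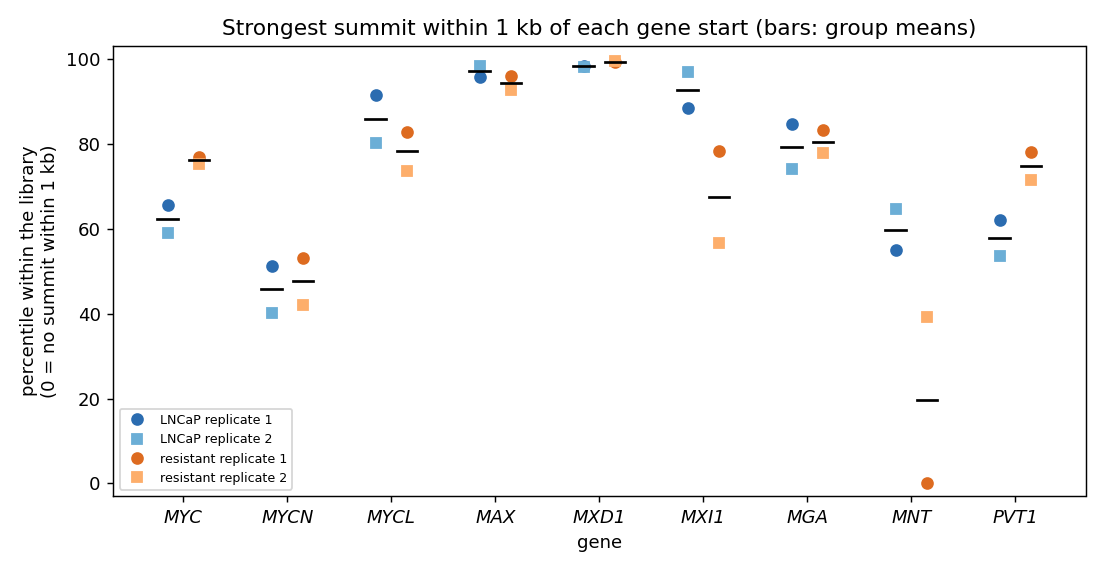
Percentile within its library of the strongest summit within 1 kb of each gene start, with 1 point per library and a bar at each group mean. The resistant points stand above the LNCaP points at MYC, PVT1 and MXD1 and below them at MXI1, and the MNT point at 0 marks a library with no summit in the window.

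MYC, the founding member, lies at chr8:127735434-127742951 in GRCh38. Its start had percentiles of 65.6 and 59.0 in LNCaP and 77.0 and 75.2 in the resistant libraries. The group means were 62.3 ± 4.64 and 76.1 ± 1.27 (SD, n = 2 libraries each), a difference of 13.7 percentile points. The groups did not overlap, and the difference ranged from 10.5 to 17.0 points when each library was left out in turn. It was 30.5 points among summits with a score of at least 10 and 62.1 points in lists of equal length. Its size thus depended on the lists. The cut to equal length removed summits below percentiles 61.1 and 57.5 in LNCaP and below 35.6 and 0.00219 in the resistant libraries. It left the LNCaP summits near the bottom of their cut lists, so the 62.1 points come in part from the cut. The summit itself also stood elsewhere within the gene. It lay 416 and 425 bp above the lower-coordinate end of MYC in LNCaP and 781 and 771 bp above it in the resistant libraries, all within 1 region of joined windows. For comparison, the start summits of MYCN lay within 6 bp of each other in all libraries, at 733 to 739 bp before the start, while those of MYCL differed between the LNCaP replicates, at 126 and 448 bp before it.

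A further shared region lay 1.20 kb below MYC, within 1 kb of an end of CASC11, a non-coding RNA gene. It had percentiles of 63.3 and 64.4 in LNCaP and 74.4 and 50.9 in the resistant libraries, so the groups overlapped. These were the only shared regions of the 9 within 50 kb of MYC. Another 4 were LNCaP-only, or 44.4%, where 27.5% of all regions were. None was resistant-only, where 3.84% of all regions were, and 3 were unclassed. The strongest LNCaP-only region lay 28.2 kb above the MYC start in intergenic sequence, with percentiles of 89.8 and 90.9, and is also within the PVT1 locus. The next, at 47.3 kb, had 73.9 and 61.5, and a region at 7.79 kb, just beyond the upper end of the gene, had 56.8 and 52.2. The summits in the MYC locus numbered 8, 8, 4 and 2, in the order LNCaP replicates 1 and 2, then resistant replicates 1 and 2. As a share of each library's summits these were 0.00682%, 0.00745%, 0.00564% and 0.00438%. The share fell less than the number, since the resistant lists are shorter.

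MYCN lies at chr2:15940550-15947004. The percentiles at its start were 51.2 and 40.3 in LNCaP and 53.1 and 42.0 in the resistant libraries, means of 45.7 ± 7.74 and 47.6 ± 7.88. The ranges of the groups overlapped, and the start stood below those of the other 8 genes in LNCaP. In lists of equal length the difference was 34.6 points. There both LNCaP summits lay below the cut and counted as absent, so this value is not read as a rise. Of 10 regions in the locus this was the only shared one, 7 were LNCaP-only and 2 unclassed. The LNCaP-only share was 70.0%, against 27.5% of all regions. The LNCaP libraries had 10 and 8 summits there and each resistant library had 1. As a share of each library's summits these were 0.00853% and 0.00745% in LNCaP and 0.00141% and 0.00219% in the resistant libraries. The strongest LNCaP-only regions lay 24.5 kb and 15.2 kb beyond the start, with percentiles of 81.9 and 66.9 and of 65.1 and 67.8, and 47.1 kb before it, with 63.4 and 59.9. A LNCaP-only region 20.5 kb before the start, at the listed start of the non-coding gene MYCNUT, had 41.1 and 74.4.

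MYCL lies at chr1:39895428-39901917 on the minus strand. Its start had percentiles of 91.5 and 80.2 in LNCaP and 82.8 and 73.6 in the resistant libraries, means of 85.8 ± 8.04 and 78.2 ± 6.47, and the groups overlapped. The locus held 17 regions, of which 4 were shared, 4 LNCaP-only and 9 unclassed. The LNCaP-only share was 23.5%, against 27.5% of all regions. A shared region 18.4 kb along from the start, at an end of TRIT1, a tRNA-modifying enzyme, had 81.9 and 88.0 in LNCaP and 80.8 and 83.3 in the resistant libraries. By contrast a shared region 24.5 kb along, inside TRIT1, stood at 91.6 and 86.4 in LNCaP and at 29.4 and 3.86 in the resistant libraries, a difference of 72.4 points between the means. A region 17.8 kb before the start had 91.0 and 79.3 against 77.1 and 61.6. The last 2 regions did not overlap between the groups.

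MAX, the common partner, lies at chr14:65006101-65102695 on the minus strand. The start was among the strongest sites of every library, with percentiles of 95.7 and 98.3 in LNCaP and 95.9 and 92.7 in the resistant libraries. The means were 97.0 ± 1.86 and 94.3 ± 2.23, and the groups overlapped. The body of the gene differed from its start. Of 19 regions in the locus 9 were LNCaP-only, 7 of them inside MAX, 4 were shared and none was resistant-only. The LNCaP-only share was 47.4%, against 27.5% of all regions, and 3.84% of all regions were resistant-only. The LNCaP libraries had 17 summits each in the locus and the resistant libraries 6 and 4. As a share of each library's summits these were 0.0145% and 0.0158% in LNCaP and 0.00847% and 0.00877% in the resistant libraries.

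The strongest LNCaP-only regions of the MAX locus lay 136 kb along from the start, inside RAB15, at percentiles of 95.6 and 95.1, and within MAX at 70.3 kb and 32.1 kb, at 94.7 and 91.9 and at 90.8 and 90.01. All 3 were above percentile 90 in both LNCaP libraries. Over all 8591 regions that strong in LNCaP, 13.9% were LNCaP-only, and in the MAX locus it was 3 of 6. Over the 9 loci together it was 4 of 14, and the 1 outside the MAX locus was in the PVT1 locus. The other 3 of the MAX locus were the MAX start, the start of FNTB, which encodes a subunit of farnesyltransferase, and a shared region 6.79 kb into MAX. FNTB was level, at 99.6 and 99.2 in LNCaP and 98.7 and 99.7 in the resistant libraries. The region 6.79 kb into MAX was at 93.7 and 91.5 in LNCaP and at 76.9 and 64.1 in the resistant libraries, without overlap.

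Among the antagonists MXD1, a repressor induced as cells differentiate, had the highest mean percentile of the 9 starts in both groups. In LNCaP replicate 2 alone MAX was higher, at 98.3 against 98.1 for MXD1. The MXD1 percentiles were 98.3 and 98.1 in LNCaP and 99.1 and 99.4 in the resistant libraries, means of 98.2 ± 0.125 and 99.2 ± 0.165. The difference of 1.04 points was small on this scale, which ends at 100, but the groups did not overlap. The gene lies at chr2:69915109-69942945. The other shared region of its 9, at the start of SNRNP27, a splicing factor gene 21.1 kb before the start of MXD1, was at 47.8 and 33.1 in LNCaP and at 66.7 and 68.4 in the resistant libraries. MXD1 had 2 LNCaP-only regions, both weak, with mean percentiles of 19.4 and 30.7. Their share of the locus' regions was 22.2%, against 27.5% of all regions.

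MXI1, also called MXD2, lies at chr10:110207605-110287365. It had the largest fall among the starts with a summit in all 4 libraries. The first listed start had percentiles of 88.4 and 96.8 in LNCaP and 78.2 and 56.6 in the resistant libraries, and the means were 92.6 ± 5.995 and 67.4 ± 15.3. The groups did not overlap, and the difference of -25.2 points ranged from -36.0 to -14.4 with each library left out. Within 10 kb of the start it was -3.46 and the groups overlapped, since that window takes in the shared region at 3.64 kb described next. All 4 summits lay within the first MXI1 window printed above, 33 to 56 bases before the start.

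The other sites of MXI1 did not follow the first start. At the last listed start, whose window holds the variant E-box, the percentiles were 89.8 and 82.5 in LNCaP and 92.1 and 70.1 in the resistant libraries, and the groups overlapped. A shared region 3.64 kb into the gene was higher in the resistant libraries, at 88.4 and 89.9 against 79.9 and 67.6 in LNCaP. A middle start is listed at position 110210231. No LNCaP summit lay within 1 kb of it, while the resistant libraries had summits at percentiles 25.7 and 89.9. The second of these belongs to the region at 3.64 kb. LNCaP-only regions made up 27.8% of the regions of the locus, against 27.5% of all regions. All 5 LNCaP-only regions of the locus lay inside MXI1, with the strongest at 53.6 kb, with percentiles of 67.0 and 73.6. A resistant-only region lay 19.0 kb before the start, with 64.0 and 36.2. In contrast to MYCN and MAX, the summits of the locus numbered 13 and 10 in LNCaP and 10 and 6 in the resistant libraries. As a share of each library's summits these were 0.0111% and 0.00932% in LNCaP and 0.0141% and 0.01315% in the resistant libraries.

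MGA, which joins a Polycomb complex as well as pairing with MAX, lies at chr15:41621224-41769940. Its first start had 84.6 and 74.0 in LNCaP and 83.2 and 77.7 in the resistant libraries, means of 79.3 ± 7.54 and 80.5 ± 3.88, and the resistant values lay between the LNCaP values. In lists of equal length they were higher without overlap, by 26.2 points, but that cut takes more from the LNCaP lists and lowers LNCaP ranks. The last listed start had summits at -28, 0, -1 and 9 bases from the start base, in the order of the libraries above, and percentiles of 90.8 and 90.5 in LNCaP and 91.4 and 93.0 in the resistant libraries. That difference was 1.54 points, without overlap. Of 20 regions 6 were shared, 5 LNCaP-only and 1 resistant-only. The strongest LNCaP-only region lay 62.9 kb into the gene, at 92.9 and 87.3. The resistant-only region lay 35.5 kb before the start in intergenic sequence, at 72.4 and 74.9, and had the highest mean percentile of the 5 resistant-only regions of the 9 loci.

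MNT, a widely expressed antagonist, lies at chr17:2384073-2401060 on the minus strand. Its value depended on the window. Within 1 kb of the start the percentiles were 54.9 and 64.6 in LNCaP and 0 and 39.2 in the resistant libraries, where 0 means no summit. Within 3 kb they were 54.9, 64.6, 77.1 and 81.0, and the direction was the opposite. Sites of 3 kinds made up this result. A shared region centred 0.826 kb before the start was level, at 54.9 and 64.6 in LNCaP and 58.2 and 63.2 in the resistant libraries. Its resistant summits lay just beyond 1 kb from the start, so the 1 kb window missed them. A region on the start itself had a summit in resistant replicate 2 alone, at 39.2. A shared region 1.34 kb into the gene was at 54.4 and 60.2 in LNCaP and at 77.1 and 81.0 in the resistant libraries, without overlap. No direction is given for the MNT start for this reason.

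Further into MNT, a shared region at 5.02 kb was lower in the resistant libraries, at 66.0 and 53.3 against 85.8 and 93.0. Of the 20 regions of the MNT locus 15.0% were resistant-only, against 3.84% of all regions. The locus held 3 of the 5 resistant-only regions of the 9 loci. They lay 8.32 kb and 7.07 kb into MNT, with percentiles of 51.4 and 11.7 and of 23.0 and 32.2, and 46.4 kb along inside SGSM2, with 14.0 and 11.3. The strongest site of the locus was also in SGSM2, 53.1 kb along, and had 99.8 and 99.5 in LNCaP and 98.4 and 90.7 in the resistant libraries. MNT was the locus with the smallest fall in the number of summits, with 13 in each LNCaP library and 12 and 11 in the resistant libraries. As a share of each library's summits the locus was higher in the resistant cells. It held 0.0111% and 0.0121% in LNCaP and 0.0169% and 0.0241% in the resistant libraries.

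**Figure D2:**
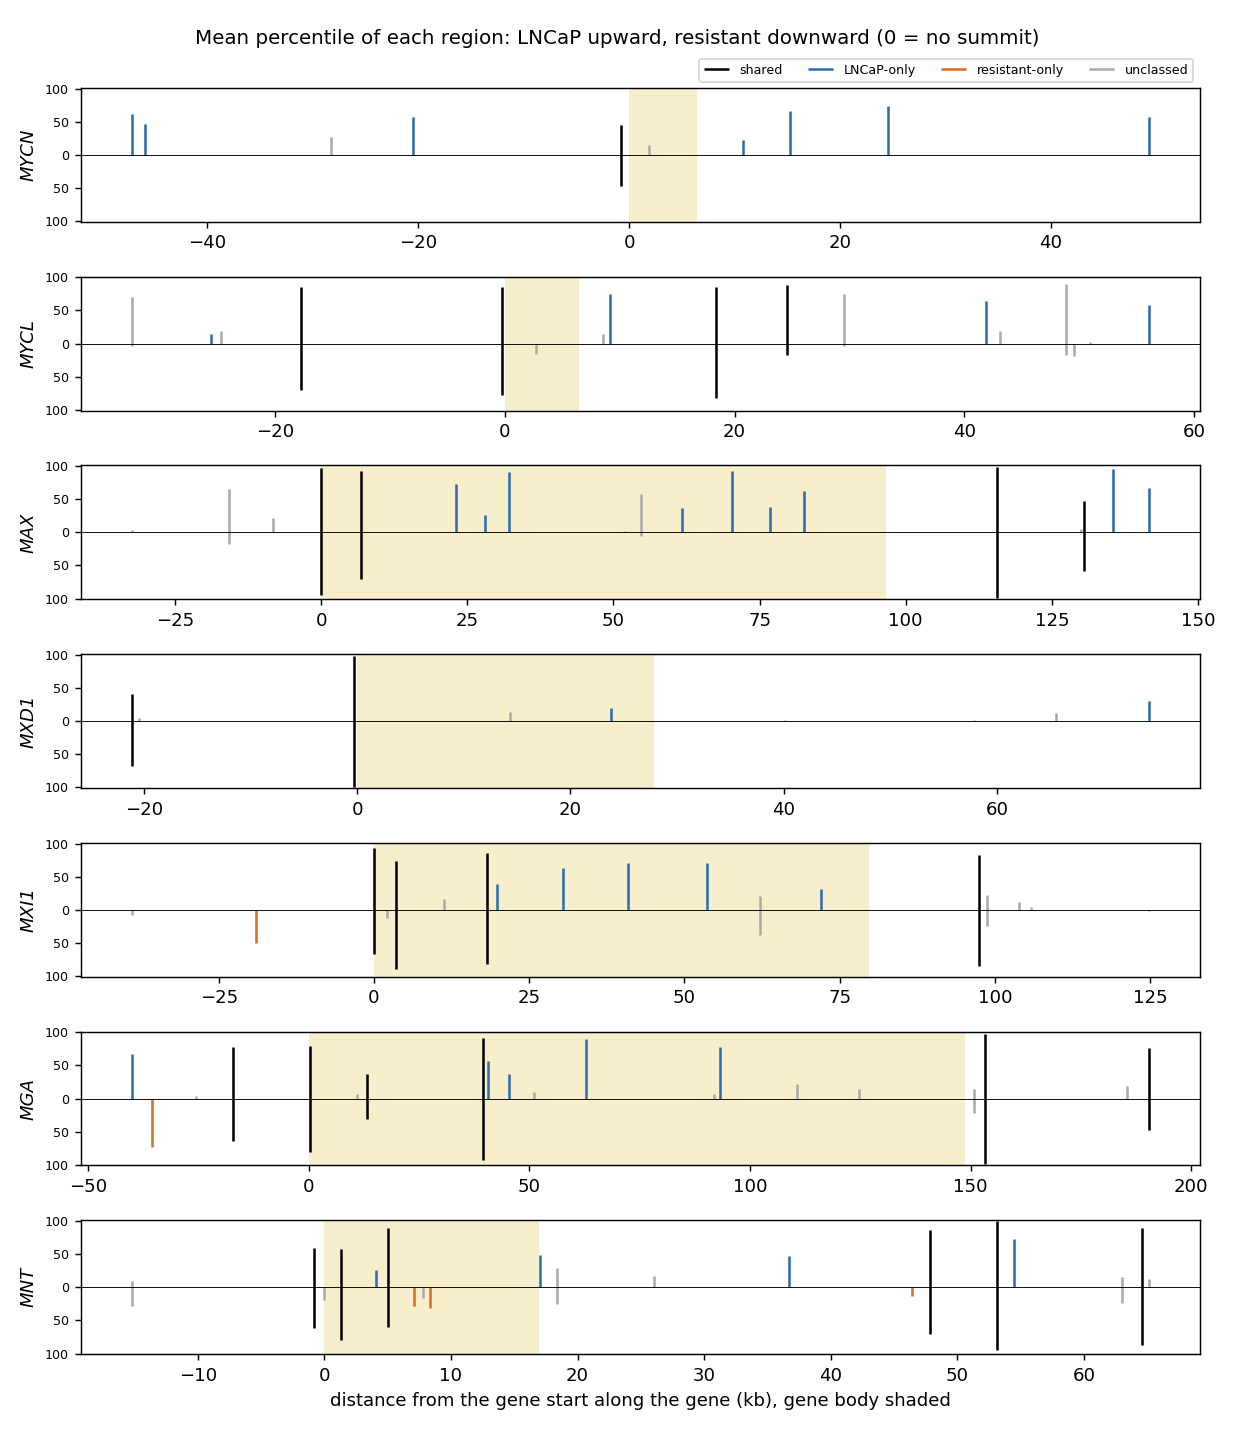
Mean percentile of each region in the 2 LNCaP libraries (upward) and the 2 resistant libraries (downward) by distance in kb from the gene start, for the 7 loci other than MYC and PVT1, with the gene body shaded and 0 where a library had no summit. A shared region (black) lies within 1 kb of each gene start, and other shared regions lie further off along the loci. LNCaP-only regions (blue) lie mostly in gene bodies and between genes, and resistant-only regions (orange) occur at MXI1, MGA and MNT.

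PVT1 lies at chr8:127794524-128101256. Its lower end faces MYC and had values like those of the MYC start. The percentiles were 62.1 and 53.6 in LNCaP and 78.2 and 71.5 in the resistant libraries, with means of 57.8 ± 6.03 and 74.8 ± 4.72 and a difference of 17.0 points. The groups did not overlap, and the difference ranged from 12.7 to 21.2 points with each library left out. It was 36.5 points among summits with a score of at least 10 and 67.5 in lists of equal length. In the latter the summit of LNCaP replicate 2 was cut away, so that value comes in part from the cut. All 4 summits lay within 54 bp of the end. A shared region 37.3 kb into PVT1 was also higher in the resistant libraries, at 99.4 and 97.1 against 94.2 and 95.1.

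Most other regions of the PVT1 locus were missing or lower in the resistant libraries. Of its 49 regions 21 were LNCaP-only, 17 of them inside PVT1, 7 were shared and none was resistant-only. The LNCaP-only share was 42.9%, against 27.5% of all regions, and 3.84% of all regions were resistant-only. The LNCaP libraries had 47 and 42 summits in the locus and the resistant libraries 19 and 10. As a share of each library's summits these were 0.0401% and 0.0391% in LNCaP and 0.0268% and 0.0219% in the resistant libraries. The strongest LNCaP-only regions lay 241 kb and 234 kb into PVT1, with percentiles of 97.5 and 98.7 and of 90.1 and 88.6. Of the 7 shared regions 2 were higher, 3 lower and 2 overlapped. Over all shared regions 17.7% were higher and 41.8% lower, so these counts are near the background. The site 60.0 kb into the gene was level, at 80.1 and 70.7 against 77.0 and 73.3 in the resistant libraries. The site 297 kb into the gene was at 98.6 and 98.1 in LNCaP and at 90.3 and 62.1 in the resistant libraries. The site at 117 kb was at 85.6 and 77.8 in LNCaP and at 16.8 and 0.873 in the resistant libraries, near the bottom of the last list.

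Over the 1508 kb around MYC, which take in PVT1, there were 116 regions. Of these 42 were LNCaP-only, or 36.2%, 18 were shared, or 15.5%, and 2 were resistant-only, or 1.72%. Over all regions the shares were 27.5%, 21.1% and 3.84%. The first 2 differences from the background depended on the lists. At a score of at least 10 the LNCaP-only share was 17 of 68, or 25%, equal to the 25% of all regions, and without resistant replicate 2 the shared part was 37 of 113, or 32.7%, above the 28.8% of all regions. The summits numbered 102 and 93 in LNCaP and 47 and 27 in the resistant libraries. As a share of each library's summits these were 0.0868% ± 0.000255 in LNCaP and 0.0628% ± 0.00505 in the resistant libraries (SD, n = 2 each), so that the window held fewer of the resistant summits also in proportion to the shorter lists. In the parts of this window outside the MYC and PVT1 loci the share was likewise 0.0432% ± 0.000457 against 0.0341% ± 0.00169.

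**Figure D3:**
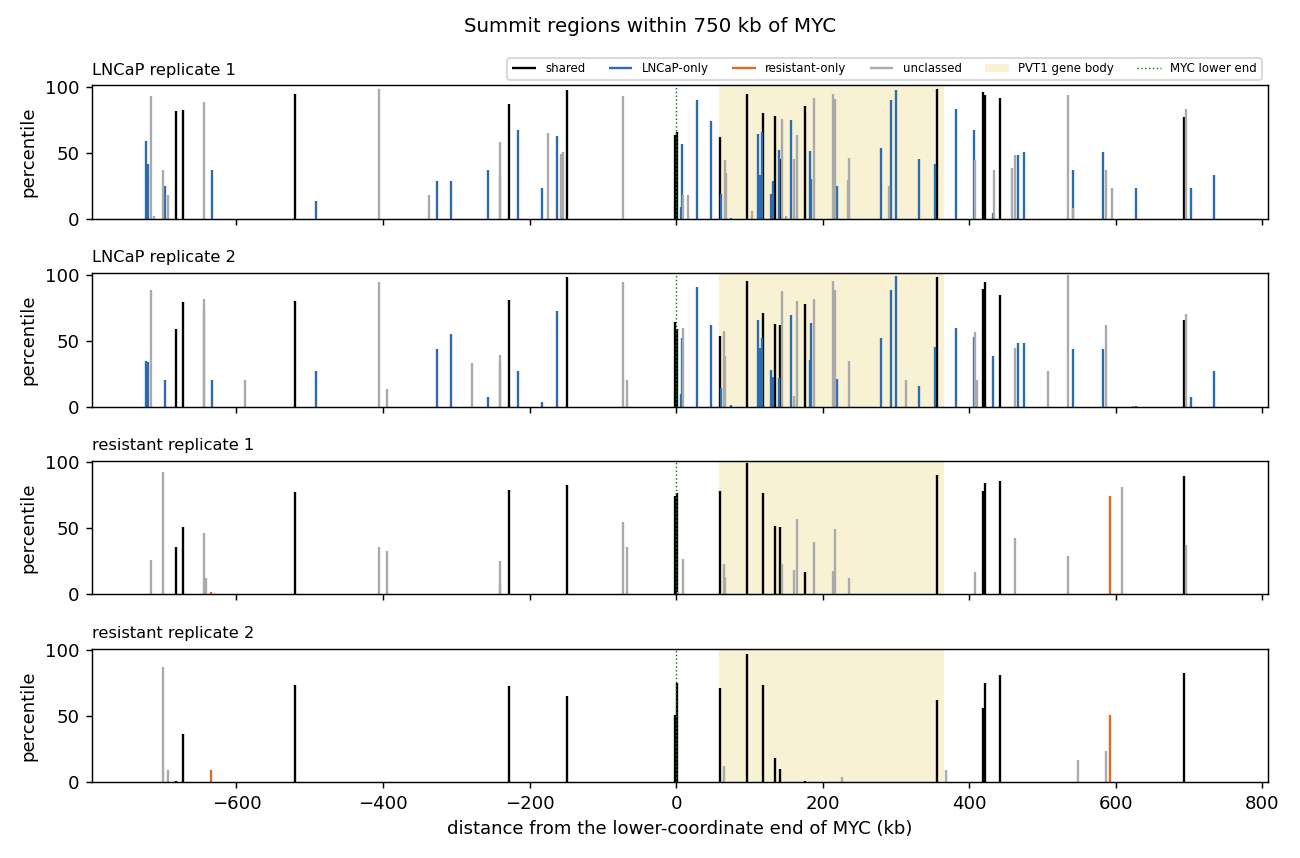
Percentile of each summit region by distance in kb from the lower-coordinate end of MYC, with 1 panel per library, lines coloured by presence class and the PVT1 gene body shaded. Blue LNCaP-only lines fill the upper panels on both sides of MYC and within PVT1, where the 2 resistant panels keep few lines, and the lines at MYC and at the lower end of PVT1 are longer in the resistant panels.

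The strongest shared sites away from the 2 genes were mostly lower in rank. A site 149 kb below MYC was at 97.9 and 97.8 in LNCaP and at 82.5 and 65.5 in the resistant libraries. A site 422 kb above was at 93.7 and 94.4 against 84.2 and 75.2, and a site 442 kb above, at 91.2 and 84.9 against 86.1 and 81.3, overlapped between the groups. The shared sites with the largest falls were the 1 at 176 kb, described above at 117 kb into PVT1, and 2 sites 683 kb and 673 kb below MYC. The first of the pair was at 81.9 and 58.6 against 36.1 and 0.629, and the second at 82.6 and 79.3 against 51.1 and 36.2. The largest rises among the shared sites were those of the PVT1 and MYC starts and of a site 693 kb above MYC in LINC00824, a non-coding gene, at 77.0 and 65.7 against 89.8 and 82.7. A larger rise, named after its value was seen, was at an unclassed intergenic region 700 kb below MYC. It had 37.3 in LNCaP replicate 1, no summit in LNCaP replicate 2, and 93.0 and 87.0 in the resistant libraries.

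In the 750 kb window 19 of the unclassed regions were found in the LNCaP libraries and in resistant replicate 1 but not in replicate 2, the shortest list, and 1 had the reverse pattern. These are 16.4% and 0.862% of the window's regions, where the shares of all regions were 7.56% and 0.799%. Of 9 regions at percentile 90 or above in both LNCaP libraries 4 were shared, 1 was LNCaP-only and 4 were of this kind. They lay 405 kb and 72.4 kb below MYC and 214 kb and 534 kb above it. The region at 405 kb below, in CASC8 and CASC21, was at 98.2 and 94.7 in LNCaP and at 36.1 in resistant replicate 1, and the region at 72.4 kb below was at 93.2 and 94.5 against 54.8. The regions above were at 94.9 and 95.0 against 17.4 and at 93.9 and 99.4 against 29.4. None of the 4 was thus a site of like rank in the resistant cells. The 2 resistant-only regions were a site 592 kb above MYC, at 74.4 and 50.9, and a site 635 kb below, at 2.01 and 9.58. Of the 18 shared regions 4 were higher and 10 lower without overlap, with a median change of -13.0 points. Over all 31833 shared regions 17.7% were higher and 41.8% lower, with a median change of -4.65.

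Taking the 9 loci together, 59 of 167 regions were LNCaP-only, or 35.3%, 36 were shared, or 21.6%, and 5 were resistant-only, or 2.99%. The background shares are those given for the MYC window. PVT1 supplied 21 of the 59, and without the MYC and PVT1 loci the LNCaP-only share was 36 of 113, or 31.9%. The share ranged from 20.0% at MNT to 70.0% at MYCN, on few regions each. Of the 36 shared regions 8 were higher, 12 lower and 16 overlapped, and their median change was -2.60 points.

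**Figure D4:**
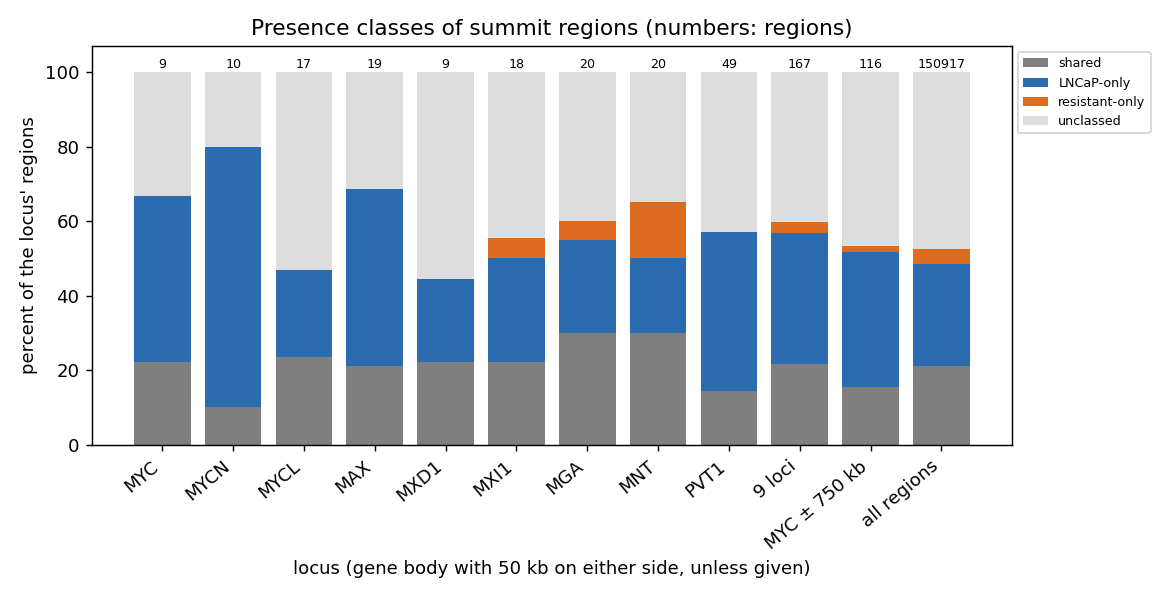
Percent of the regions of each locus that were shared, LNCaP-only, resistant-only or unclassed, with the number of regions above each bar and all regions at the right. The LNCaP-only part is largest at MYCN (70.0%), MAX, MYC and PVT1, against 27.5% of all regions, and only MXI1, MGA and MNT have a resistant-only part.

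The position of the regions separated the classes. Of the 36 shared regions of the 9 loci 19 lay within 1 kb of a gene start, or 52.8%, as did 4 of 59 LNCaP-only regions, or 6.78%, and 0 of 5 resistant-only regions. Over all regions these shares were 41.0%, 7.11% and 27.0%. The LNCaP-only regions of the network thus lay away from starts about as often as such regions elsewhere.

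The counts of each class depend on the lengths of the lists. When every list was cut to the 45618 strongest summits, the 9 loci had 29 LNCaP-only regions of 96, or 30.2%, against 17.1% of all regions, and 8 resistant-only regions, or 8.33%, against 14.9%. Within 750 kb of MYC there were 13 LNCaP-only regions of 55, or 23.6%, 2 resistant-only regions, or 3.64%, and 14 shared regions, or 25.5%, where 26.8% of all regions were shared. Of the 59 LNCaP-only regions 24 were in the cut lists of both LNCaP libraries, or 40.7%, against 26.1% of such regions overall. Of the 42 around MYC only 8 were, or 19.0%, so that most losses near MYC were of sites below this rank in LNCaP.

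Ranks among the 31833 shared regions alone leave out the summits that some libraries lack. On this scale the MYC start had 30.0 and 27.1 in LNCaP and 54.4 and 66.9 in the resistant libraries, a rise of 32.1 points. The PVT1 start stood at 26.3 and 22.4 against 56.4 and 62.4, a rise of 35.1. MYCN at 16.0 and 12.9 against 21.1 and 30.5, MXD1 at 94.5 and 94.5 against 98.1 and 99.1, and the first MGA start at 60.9 and 45.6 against 65.6 and 70.0 were also higher without overlap. MXI1 was lower, at 69.0 and 91.0 against 56.5 and 45.4. MYCL, MAX and MNT overlapped. By this scale 35.3% of all shared regions were higher and 30.0% lower without overlap.

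The other genes of the network were read at their starts from a list of 41 genes. It held MLX and its partners with further MXD genes, cofactors, factors of MYC protein turnover and known MYC target genes. All 41 had a summit in at least 1 library and 35 in all 4. Both resistant values were higher for 13 of the 41 and lower for 5, and 23 overlapped, with a median change of 1.68 points. Over all protein-coding genes the shares were the 20.4% and 15.3% given above and the median change was 0.0. But 5597 of those genes had no summit at all, and against genes with a summit the background is 28.2% and 21.2%. The 13 higher are near that share, and the 5 lower fall below it on few genes.

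By role, 4 of 13 cofactors were higher and 2 lower, as were 2 and 1 of 8 turnover factors and 6 and 1 of 15 target genes. Of 5 genes of the MLX arm and other MXD genes 1 was higher and 1 lower. Beside 28.2% higher and 21.2% lower among genes with a summit, these counts are too few to give a direction for any role. Among the genes without overlap the largest rises were at SIN3B and SIN3A, scaffolds of the repressor complex that MXD proteins recruit, and at ODC1, the rate-limiting enzyme of polyamine synthesis and a classic MYC target. SIN3B had 42.5 and 0 in LNCaP and 65.4 and 43.3 in the resistant libraries. SIN3A was at 30.0 and 0 against 42.1 and 47.1. For both genes LNCaP replicate 2 had no summit in the window, so the size of the rise rests on that library.

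ODC1 had 67.4 and 59.3 in LNCaP and 91.6 and 71.8 in the resistant libraries, a rise of 18.4 points. The largest falls without overlap were at MLX, a MAX-like partner, at 66.1 and 74.7 against 53.2 and 33.0, at KAT5, an acetyltransferase cofactor of MYC, at 99.4 and 99.8 against 96.6 and 89.8, and at MYCBP, a MYC-binding protein, at 99.1 and 99.0 against 95.4 and 94.5. Of 11 other genes near MYC, 6 had no summit at an end in any library, 1 was higher (LRATD2) and 2 were lower (CASC21 and PRNCR1, both non-coding). The shares of 20.4% higher and 15.3% lower are for protein-coding genes. Most of these 11 are non-coding and were read at either end, so no direction is read from the counts. CASC21 had only weak summits in LNCaP, at 13.3 and 27.1, and none in the resistant libraries.

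In LNCaP the order of the member starts by mean percentile was MXD1, MAX, MXI1, MYCL, MGA, MYC, MNT, PVT1 and MYCN. Neighbours in this order overlapped, except MGA with MYC and PVT1 with MYCN. In the resistant libraries the order was MXD1, MAX, MGA, MYCL, MYC, PVT1, MXI1, MYCN and MNT, the last by its 1 kb window only. There the values of MGA, MYCL, MYC, PVT1 and MXI1 overlapped from each gene to the next, and the other neighbours did not overlap. MXI1 thus stood next to MAX in the order of LNCaP and next to PVT1 in that of the resistant libraries.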

How the data were processed

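ATAC-seq had been run on 2 LNCaP and 2 LNCaP-resistance libraries, with 1 list of peak summits for each. The authors called peaks on each library and deposited 1 score for each summit, which looks like a −log10 p, raw or adjusted. Its definition is not given in the sources used here. Each list starts just above 1.3, the −log10 of 0.05. The submitters' processing notes name Bowtie2 2.2.5, SAMtools 1.6, MACS2 2.2.6 and the build hg38. The lists give no read counts, so depth and the precision it would give are unknown, and the scores served only to rank the summits of 1 library.

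Summits were widened by 250 bp and merged across libraries. Gene bounds came from RefSeq, GRCh38.p14. The start was the 5′ end where a promoter sequence gave the strand, and either end otherwise, as for MYC and PVT1. Exons and introns were not used. A region's place is its midpoint. A gene's value is the percentile of the strongest summit within 1 kb of its start, or 0. The members and gene lists were chosen with earlier results of these data known, and the regions named were the strongest of each class in a locus and, around MYC, those with the largest changes. Other regions are named after their values were seen. TMEM75, of the genes near MYC, was not in the table. Groups came from the labels. The labels' batch field gives each library a repeat number, shared by 1 LNCaP and 1 resistant library, without saying what the libraries of a repeat have in common. The alternatives tried were half-widths of 100 or 500 bp, scores from 10 upward, lists cut to equal length, membership by at least 1 library, other flanks and start windows, each library left out, and each repeat alone. Ranks among shared regions and the loci outside chromosome 8 were added after seeing the data. On simulated lists, 100% of 4000 planted regions were given the right class. Python 3.11.15, numpy 2.4.6, pandas 2.3.3 and matplotlib 3.10.9 were used.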

Additional observations from a re-analysis of the deposited data

How the results depend on the processing

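Counts are given for the 9 loci and then for 750 kb around MYC. LNCaP-only regions numbered 39 and 17 at a score of at least 10 (37.1% and 25%, against 25% of all regions). With equal numbers of summits there were 29 and 13 (30.2% and 23.6%, against 17.1%). With membership by at least 1 library there were 94 and 65 (56.3% and 56.0%, against 52.0%), near the background. The 7 loci outside chromosome 8 held 36 (31.9%, against 27.5%). Resistant-only regions of the 9 loci numbered 1 at a score of at least 10 (0.952%, against 4.33%) and 8 with equal numbers (8.33%, against 14.9%). By at least 1 library there were 15 and 9 (8.98% and 7.76%, against 12.9%). Shared regions numbered 58 and 42 by at least 1 library (34.7% and 36.2%, against 35.1%). With flanks of 100 kb the 9 loci held 55 shared regions (23.3%, against 21.1%) and with 25 kb 3 resistant-only regions (2.33%, against 3.84%). Within 250 kb of MYC there were 10 shared regions (18.9%, against 21.1%), 19 LNCaP-only (35.8%, against 27.5%) and 0 resistant-only (against 3.84%). In the main setting the 9 loci held on average 0.1193% of the summits in LNCaP and 0.1013% in the resistant libraries. The difference, in percentage points, was -0.0180 there and -0.0241 around MYC. It was -0.0362 (9 loci) at a score of at least 10, and -0.0471 and -0.0285 with equal numbers. In the 7 loci outside chromosome 8 it was -0.003025 in the main setting. There the groups overlapped, at 0.0768% and 0.0745% in LNCaP against 0.0663% and 0.0789% in the resistant libraries.

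Leaving out each library in turn gave 60 to 83 and 43 to 61 LNCaP-only, 37 to 51 and 19 to 37 shared, and 6 to 11 and 3 to 6 resistant-only regions. The background moved as well. For LNCaP-only regions of the 9 loci these extremes were 36.8% against 28.6% of all regions and 53.2% against 46.9%. Around MYC they were 38.1% against 28.6% and 54.5% against 38.0%. The 11 and 6 resistant-only regions were 6.75% and 5.31%, against 12.0%. The shared count around MYC reached 37 without resistant replicate 2, or 32.7% against 28.8% of all regions. The share differences ran from -0.0219 to -0.0141 and from -0.0276 to -0.0205. Member starts numbered 3 to 5 higher and 2 to 4 lower, and network genes 16 to 23 higher and 8 to 15 lower, the extremes of the last without LNCaP replicate 1 or resistant replicate 2 and without resistant replicate 1. Leaving out a library compares 1 value with 2, which lets more genes pass.

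With equal numbers 5 member starts were higher and 1 lower, and 29 network genes were higher and 2 lower. That cut takes more from the LNCaP lists and lowers LNCaP ranks. Shares over all protein-coding genes were computed only for the full lists at 1 kb, so the gene counts of this section have no background. With a 3 kb window 1 member was lower, and with 10 kb 9 network genes were. MNT turned from -40.1 points at 1 kb to 19.3 at 3 kb, 11.2 with equal numbers and 13.6 among shared regions. At 10 kb MXI1 was at -3.46 with overlap, and PVT1 turned to -23.6. That window took in the LNCaP summits of the site near the upper end of PVT1 but just missed the resistant summits of that site. The value thus compares different sites and gives no direction for PVT1.

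The comparison within the labels' repeats (replicate block) sets side by side single libraries, so a gene is called whenever its values differ. Repeat 1 gave 14 and 8 resistant-only regions (9.21% and 7.62%, against 15.6% of all regions) and 38 shared regions around MYC (36.2%, against 35.5%). It also gave 5 member starts higher and 4 lower, 26 network genes higher and 14 lower, and a share difference of -0.0229 for the 9 loci. Repeat 2 gave 10 and 7 resistant-only regions (7.41% and 7.14%, against 9.24%) and 71 LNCaP-only regions around MYC (72.4%, against 60.8%). It also gave 5 and 4 member starts, 21 and 19 network genes, and -0.0131. MYC, PVT1 and MXD1 were higher and MXI1 lower in both repeats, which had to follow, since their groups did not overlap.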
